A study of Mus musculus with 19 samples.

Results

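The 6 miRNAs described here are carried mainly by white blood cells: mmu-miR-223, mmu-miR-142-3p, mmu-miR-142-5p, mmu-miR-146a, mmu-miR-150 and mmu-miR-155, written below without the species prefix. They were chosen by name, as the array spells it, out of the 696 mouse miRNAs on an Agilent one-colour miRNA array. The question, from the title of the study, was whether hepatic miRNAs respond to dibenz[a,h]anthracene, a polycyclic aromatic hydrocarbon that damages DNA after metabolic activation. Each of 19 arrays held liver RNA of 1 male MutaMouse (transgenic mouse strain 40.6), aged 10 weeks. All mice, controls included, carried the MutaMouse transgene, a bacterial reporter for mutations, so no wild-type liver was compared. Daily gavage lasted 28 days, and liver was collected 3 days after it ended. The low dose group received 6.25 mg/kg/day of dibenz[a,h]anthracene in olive oil (n = 5), the middle dose group 12.5 mg/kg/day (n = 4) and the high dose group 25 mg/kg/day (n = 5). The vehicle controls received olive oil alone (0 mg/kg/day, n = 5). Per the labels each dose had 5 animals, so 1 middle dose animal was not analysed here.

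MicroRNAs are short RNAs that pair with target mRNAs mainly through their seed, bases 2 to 8, and lower the amount or the translation of those targets. miR-223 is abundant in neutrophils and monocytes, where it restrains granulocyte activation. Both arms of the miR-142 hairpin are found throughout the blood cell lineages and hardly elsewhere. miR-146a is induced by NF-κB and limits signalling through TRAF6 and IRAK1. miR-155 rises in activated macrophages and lymphocytes. miR-150 marks mature lymphocytes, where it represses Myb. The liver holds such cells as Kupffer cells (its resident macrophages), as infiltrating leukocytes and as blood left in its vessels.

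The mature sequences are shown because the seeds tell which members could act on the same targets. They are from RefSeq (mouse GRCm38.p6), 5′ to 3′, with the seed in capitals, and 5 of the 6 members were matched. The array uses older names without arms, under which miR-223 is the 3p product and miR-146a and miR-155 are 5p products. miR-146b was added as the relative of miR-146a.
miR-223: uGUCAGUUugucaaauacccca
miR-142-3p: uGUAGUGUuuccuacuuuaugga
miR-142-5p: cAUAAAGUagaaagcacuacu
miR-146a: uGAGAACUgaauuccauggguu
miR-146b: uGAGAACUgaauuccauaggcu
miR-155: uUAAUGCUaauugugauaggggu

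No matched members shared a seed with each other. miR-146a and miR-146b had the same seed and differed at 2 of 22 bases, G18A and U21C, counted from 1 at the 5′ end with the base of miR-146a first. miR-146b was detected on none of the 19 arrays. miR-223 is encoded at chrX:96242884-96242905 (plus strand), within the span of F630028O10Rik. miR-146a is at chr11:43374435-43374456 (minus strand). miR-155 is at chr16:84714143-84714165 (plus strand), within its host gene Mir155hg.

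The miR-142 arms come from 1 hairpin of 64 bases at chr11:87756864-87756927 (plus strand), within the span of a second miRNA gene, Mir142b. It is shown because both of its products were measured, with the 5p arm first and each arm in capitals.
Mir142 hairpin: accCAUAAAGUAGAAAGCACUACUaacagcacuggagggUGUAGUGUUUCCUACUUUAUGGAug

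The arrays lay on 3 slides that each held all 4 groups, and the number of arrays limits the precision. Dose went largely with the row of the slide: 4 of 5 low dose and 4 of 5 control arrays were in row 1, while 3 of 4 middle dose and all 5 high dose arrays were in row 2. Each level below is the log2 of a probe's signal over the 75th percentile of its array, taken over 220 probes detected everywhere, so 0 is that percentile. Signals differed with dose before this scaling. The 75th percentile averaged 301, 215 and 195 units from the low to the high dose, against 357 in controls. From 174 to 209 miRNAs were detected per low dose array, 157 to 184 per middle dose array and 155 to 184 per high dose array, against 181 to 209 per control array. The mean log2 signal of the RNA spiked in before labelling was 12.25, 11.89 and 11.52 from the low to the high dose, against 12.36 in controls. The part of these differences in the results was not tested beyond the other scalings and the covariate given below.

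Of the 6 members, 3 were detected on all 19 arrays, namely miR-223, miR-142-3p and miR-146a. miR-142-5p was detected on 17 of 19, missing on middle dose replicate 14 and high dose replicate 16. miR-150 and miR-155 were detected on 0 of 19. Their probes gave intensities from -0.68 to 2.07 units for miR-150 and from -1.17 to 1.48 units for miR-155. The dimmest probe called well above background on an array gave 6.78 to 12.6 units. Both miRNAs were therefore below what these arrays measure in every group, and no fold change is given. The 4 measured members were thus the myeloid miR-223, the pan-leukocyte miR-142 arms and miR-146a, while the lymphocyte miRNA miR-150 gave no signal well above background.

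miR-223 passed the test against control at each dose. Its level was 1.29, 1.40 and 1.31 times the control level in low, middle and high dose livers (fitted fold changes). miR-142-3p, miR-142-5p and miR-146a did not pass the test at any dose. That miR-223 differed from miR-142-3p or miR-146a in its response was not shown, as the ratios below give. Against miR-142-5p this was not tested. The miR-223 calls were close to the threshold and were lost under several other scalings. With the row of the slide also as a block, the middle and high dose calls were lost and the low dose call was kept. These are bulk livers, in which more cells of a type and more RNA per cell cannot be told apart.

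At the low dose, miR-223 levels were -1.45, -1.86, -1.75, -1.60 and -1.63 (replicates 3, 11, 12, 18 and 24). The middle dose livers gave -1.54, -1.27, -1.48 and -1.74 (replicates 5, 6, 14 and 20). The high dose livers gave -1.80, -1.58, -1.60, -1.52 and -1.59 (replicates 7, 8, 15, 16 and 23), against -1.79, -2.19, -2.001, -2.12 and -2.01 in controls (replicates 1, 10, 17, 19 and 22). All 4 middle dose livers lay above every control. The same held for 4 of 5 low dose livers, with replicate 11 inside the control range. It also held for 4 of 5 high dose livers, with replicate 7 level with the highest control, replicate 1. Complete separation of this kind was found for 3.37% of the 208 tested miRNAs at the low dose and 4.33% at each higher dose.

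**Figure D1:**
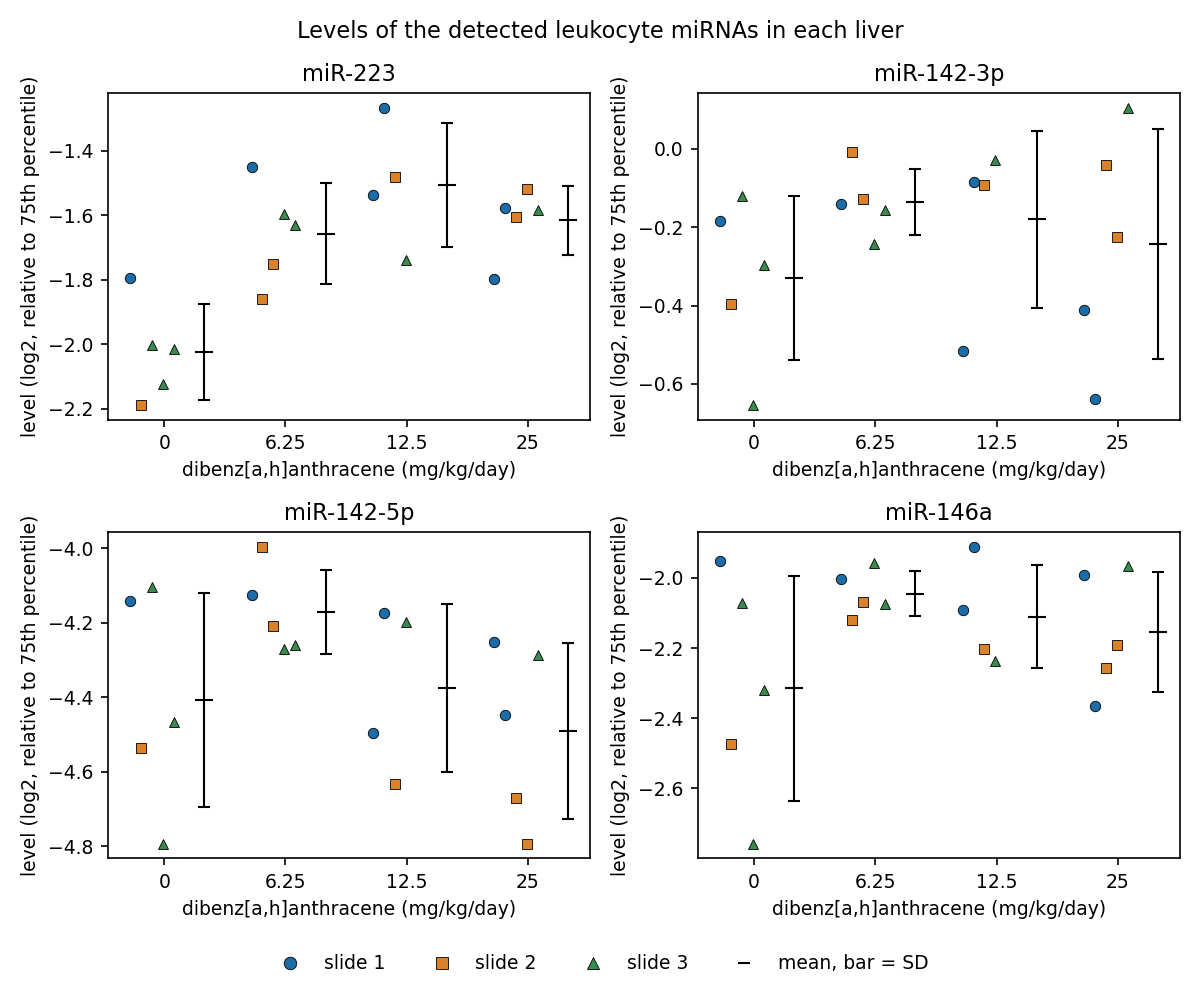
Level of the 4 detected members in each liver (log2, scaled to its array's 75th percentile) by dose in mg/kg/day, with 1 point per array shaped by slide and bars for mean ± SD. For miR-223 all 4 middle dose livers lie above the 5 controls, while the groups overlap for miR-142-3p, miR-142-5p and miR-146a.

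Group means for miR-223 were -1.66 ± 0.157 in low dose livers, -1.51 ± 0.193 in middle dose livers and -1.62 ± 0.106 in high dose livers, against -2.02 ± 0.150 in controls (SD, n = 5, 4, 5 and 5). With the slide as a block, limma gave a log2 fold change of 0.37 at the low dose (SE 0.0920, 95% interval 0.17 to 0.57, adjusted p = 0.0382). The middle dose gave 0.48 (SE 0.0999, interval 0.27 to 0.70, limma adjusted p = 0.0198). The high dose gave 0.39 (SE 0.0950, interval 0.19 to 0.59, limma adjusted p = 0.0482). Over all 208 tested miRNAs, 4.33%, 5.77% and 2.4% were called higher from the low to the high dose, and 0 were called lower. Among the 4 tested members 1 was called higher at each dose. Without control replicate 10 alone, miR-223 passed at no dose (0.33, 0.44 and 0.34, limma adjusted p = 0.201, 0.0869 and 0.132). The median log2 fold change of the 4 was 0.27, 0.19 and 0.13 from the low to the high dose, beside 0.07, 0.11 and 0.06 over all tested miRNAs.

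The 3 doses did not separate from each other in miR-223. The difference was 0.11 for middle minus low (95% interval -0.10 to 0.32, limma adjusted p = 0.677). It was 0.02 for high minus low (interval -0.18 to 0.22) and -0.09 for high minus middle (interval -0.30 to 0.11), both with a limma adjusted p of 1. Over the whole design, the background of calls was 0.962% for the linear trend and 0.962% for the F test. The trend of miR-223 was 0.0124 per mg/kg/day (limma adjusted p = 0.158), and the F test over the 4 groups gave an adjusted p of 0.0643 in limma. The mean of the 3 doses differed from control by 0.42 (SE 0.0781, interval 0.25 to 0.58, limma adjusted p = 0.00838), in a comparison that called 8.17% of tested miRNAs higher.

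Within slides, where dosed and control livers shared a slide, the mean level of miR-223 was higher in the dosed livers each time. On slides 1, 2 and 3 the low dose minus control difference was 0.35, 0.38 and 0.43. The middle dose difference was 0.39, 0.71 and 0.31, and the high dose difference was 0.11, 0.63 and 0.46. These rest on 1 or 2 dosed arrays against 1 to 3 controls per slide. Permuting arrays within slides gave exact two-sided p = 0.0167 for the low dose and 0.0417 for the middle dose, each the smallest the layout allows. For the high dose it was 0.0556. Within row 1 the difference was 0.36 at the low dose (4 arrays against 4 controls) and 0.29 at the middle dose (1 against 4). Within row 2, which held 1 control, it was 0.39, 0.59 and 0.40 from the low to the high dose (1, 3 and 5 arrays). With slide and row both as blocks limma gave 0.37, 0.42 and 0.30 (adjusted p = 0.0430, 0.0839 and 0.427), and 0.36 for the mean of the doses (adjusted p = 0.0591), where calls over all miRNAs fell to 2, against 17 without the row. Across slides the exact permutation p was 0.0159, 0.00794 and 0.0159 from the low to the high dose. Adjusted over 208 miRNAs, these were 0.300, 0.200 and 0.183. The smallest p this test allows is 0.00794 before adjustment. It could hardly pass over 208 miRNAs, so its failure to pass decides nothing.

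miR-142-3p showed smaller differences with wide spread. Its levels were -0.14, -0.01, -0.13, -0.24 and -0.16 in low dose livers, and -0.52, -0.08, -0.09 and -0.03 in middle dose livers. They were -0.41, -0.64, -0.04, -0.22 and 0.10 at the high dose, against -0.19, -0.40, -0.12, -0.65 and -0.30 in controls, in the replicate order given for miR-223. The high dose livers covered nearly the whole range of the series, and every dose overlapped the controls. The log2 fold changes were 0.19 (95% interval -0.10 to 0.48), 0.20 (-0.11 to 0.51) and 0.12 (-0.18 to 0.41) from the low to the high dose, with limma adjusted p = 0.670, 0.396 and 0.673. On slide 1 the difference was -0.11 for the middle and -0.34 for the high dose, below 0, while slides 2 and 3 gave 0.26 to 0.46 at these doses.

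The other arm of the hairpin, miR-142-5p, lay close to -4.79, the floor to which lower scaled levels were raised. Its levels were -4.13, -4.00, -4.21, -4.27 and -4.26 in low dose livers, and -4.50, -4.17, -4.63 and -4.20 in middle dose livers. They were -4.25, -4.45, -4.67, -4.79 and -4.29 at the high dose, against -4.14, -4.54, -4.10, -4.79 and -4.47 in controls. High dose replicate 16 and control replicate 19 stood at the floor, so their values are upper bounds. The floor is not a detection limit, as 100% of the spots of control replicate 19 were well above background. The log2 fold change was 0.26, 0.01 and -0.08 from the low to the high dose (limma adjusted p = 0.476, 1 and 0.826). The 95% intervals were -0.03 to 0.55, -0.31 to 0.32 and -0.38 to 0.22, all of which include 0.

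miR-146a, the NF-κB-induced member, had levels of -2.004, -2.12, -2.07, -1.96 and -2.07 in low dose livers, and -2.09, -1.91, -2.20 and -2.24 in middle dose livers. They were -1.99, -2.36, -2.26, -2.19 and -1.97 at the high dose, against -1.95, -2.47, -2.07, -2.76 and -2.32 in controls. The controls held both the lowest livers of the series, replicates 19 and 10, and the second highest, replicate 1. The low dose livers were close together (SD 0.0644, n = 5, against 0.321 in controls, n = 5). The log2 fold change was 0.28 (95% interval 0.01 to 0.55), 0.17 (-0.12 to 0.46) and 0.15 (-0.13 to 0.43) from the low to the high dose, with limma adjusted p = 0.309, 0.440 and 0.518. At the low dose its unadjusted limma p was 0.0401, and 13.5% of tested miRNAs were higher with an unadjusted p under 0.05 there.

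**Figure D2:**
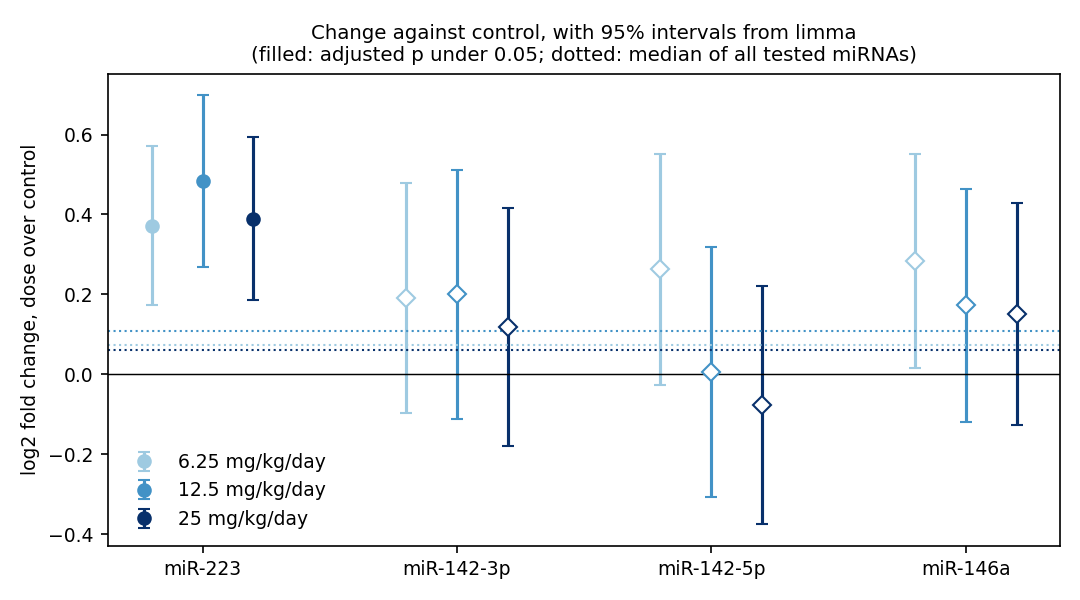
log2 fold change of each detected member at each dose over control, with 95% limma intervals. Filled symbols have an adjusted p under 0.05 and dotted lines mark the median of all tested miRNAs. The 3 filled symbols are those of miR-223, between 0.37 and 0.48.

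The miR-223 call was sensitive to how arrays were set to a common level. With no scaling, the log2 fold change was 0.19, -0.09 and -0.32 from the low to the high dose (limma adjusted p = 1, 0.904 and 0.225), and the median of all tested miRNAs was -0.02, -0.24 and -0.47. Relative to that median miR-223 remained on the higher side at each dose. With the 75th percentile taken over all probes it was 0.30, -0.01 and 0.12 (limma adjusted p = 1, 1 and 0.646), where the median was 0.02, -0.15 and -0.08. Setting the labelling spike-ins equal gave 0.30, 0.28 and 0.45 (limma adjusted p = 1, 0.946 and 0.198). Quantile normalization gave 0.22, 0.28 and 0.21 (limma adjusted p = 0.813, 0.351 and 0.367). With array signal as a covariate the values were 0.33, 0.36 and 0.23 (limma adjusted p = 0.0405, 0.171 and 0.409).

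The split of calls over all miRNAs moved with the scaling too. At the middle dose 12 were higher and 0 lower as reported, against 1 higher and 33 lower with the percentile over all probes. At the high dose the split was 5 higher and 0 lower as reported, against 1 higher and 68 lower with no scaling. Across 18 alternatives miR-223 was higher in 18, 16 and 17 from the low to the high dose, and passed the test in 6, 6 and 4.

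Each member had a second probe on the array. The second probe of miR-223, also detected on all 19 arrays, gave 0.25, 0.53 and 0.54 from the low to the high dose (limma adjusted p = 0.588, 0.0808 and 0.0778). The authors' deposited value table, in log2 units, gave fold changes of 0.11, 0.21 and 0.17 for miR-223 in the same limma fit (adjusted p = 0.316, 0.0200 and 0.0412). The second probe of miR-146a stood at the floor on 17 of 19 arrays.

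**Figure D3:**
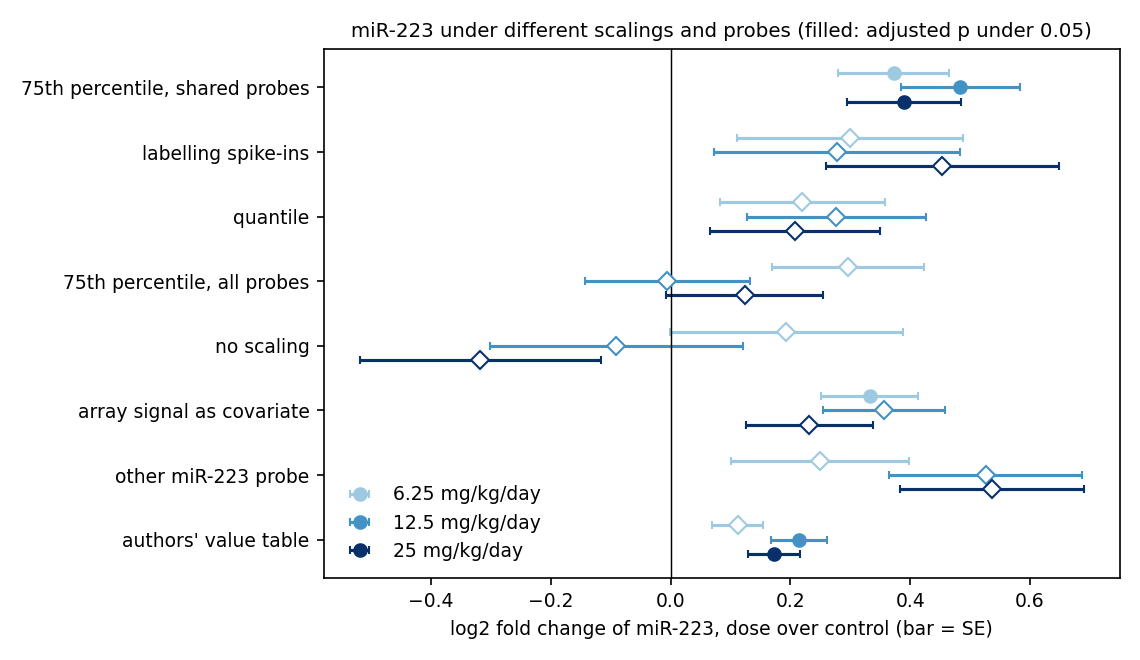
log2 fold change of miR-223 at each dose over control under 8 choices of scaling, covariate, probe or value table, with bars for the SE and filled symbols where the adjusted p was under 0.05. The values lie to the right of 0 in every choice except 3, the middle dose with the percentile over all probes (-0.01) and the middle and high doses with no scaling (-0.09 and -0.32).

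Levels of miR-223 were also set against the signal of the array. The level is divided by the same 75th percentile, so a negative r is partly built in, and the dose groups differ in both. Over 19 arrays, centred on their slides, its correlation with the log2 75th percentile of signal was r = -0.649 (permutation p = 0.00676, rho = -0.637, permutation p = 0.00709), with p = 0.0541 for r after adjustment over 8 such relations. Without control replicates 17 and 22, the arrays whose signal was farthest from its median, r was -0.584. The same correlation was -0.153 for miR-142-3p, -0.0918 for miR-146a and 0.494 for miR-142-5p (permutation p = 0.530, 0.734 and 0.0850). With group means also taken out, r for miR-223 was -0.557. Against the labelling spike-in signal, which does not enter the level, r was -0.529 (permutation p = 0.0321, adjusted p = 0.128), and -0.510 with group means out.

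Ratios between members of the same array do not change when the array is divided by 1 factor. The log2 ratio of miR-223 to miR-142-3p was -1.31, -1.85, -1.62, -1.35 and -1.47 in low dose livers and -1.02, -1.18, -1.39 and -1.71 in middle dose livers. High dose livers gave -1.38, -0.94, -1.56, -1.29 and -1.69, against -1.61, -1.79, -1.88, -1.47 and -1.72 in controls. Above the highest control lay 2 of 5 low dose, 3 of 4 middle dose and 3 of 5 high dose livers, so each dose overlapped the controls. The dose minus control difference was 0.17, 0.37 and 0.32 from the low to the high dose (exact permutation p = 0.190, 0.0556 and 0.0476). After adjustment over the 9 ratio comparisons these were 0.343, 0.167 and 0.167. These p values leave the slide out. Permuted within slides, the difference was 0.22, 0.27 and 0.26 (exact permutation p = 0.1, 0.125 and 0.167, each 0.325 adjusted). The smallest p the slides allow is 0.0167, 0.0417 and 0.0278 in that order.

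For miR-223 to miR-146a the difference in log2 ratio was 0.10, 0.31 and 0.25 (exact permutation p = 0.389, 0.0397 and 0.111, adjusted 0.520, 0.167 and 0.25). Permuted within slides, it was 0.12, 0.33 and 0.24 (exact permutation p = 0.35, 0.125 and 0.194, adjusted 0.45, 0.325 and 0.325). The ratio of miR-146a to miR-142-3p differed by 0.07, 0.05 and 0.07 (exact permutation p = 0.405, 0.754 and 0.611). Quantile normalization, which uses no single factor, also moves such ratios. At the middle dose the fitted log2 fold change of miR-223 minus that of miR-142-3p was 0.21 under it, against 0.28 as reported, and minus that of miR-146a 0.40, against 0.31. A rise of miR-223 beyond that of the other members was therefore not shown at an adjusted p under 0.05, although both ratios with miR-223 had higher means at each dose.

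**Figure D4:**
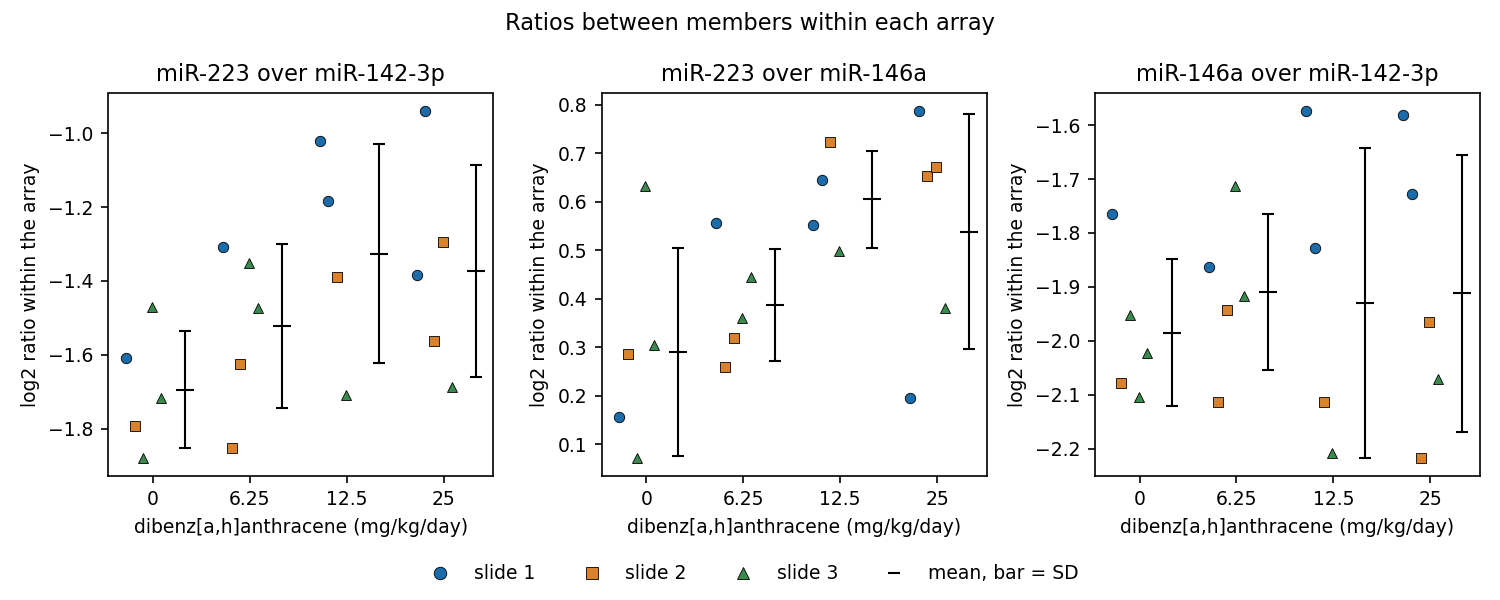
log2 ratio between pairs of members within each array, by dose in mg/kg/day, with 1 point per array shaped by slide and bars for mean ± SD. The means of both ratios with miR-223 on top lie above the control mean at each dose, and the points of every dose overlap those of the controls.

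Between livers, miR-142-3p and miR-146a were the closest pair of members. Their slide-centred levels had r = 0.803 over 19 arrays, and 0.780 with group means also taken out. miR-142-5p had r = 0.656 with miR-142-3p, the other arm of its hairpin, and 0.661 with miR-146a. These values are descriptions, as the arrays share their scaling.

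At the scaling used here, the values for miR-223 were lower. Its correlation was r = 0.527 with miR-142-3p (permutation p = 0.0231, rho = 0.514, permutation p = 0.0340) and r = 0.534 with miR-146a (permutation p = 0.0183, rho = 0.439, permutation p = 0.0743). Adjusted over the 207 other tested miRNAs, p for r was 0.0942 and 0.0850. With miR-142-5p r was 0.0128 (permutation p = 0.964). Control replicates 10 and 19 were the arrays farthest from the median of miR-223. Without them r was 0.251 with miR-142-3p, 0.208 with miR-146a and -0.323 with miR-142-5p. Leaving out the extremes of miR-223 narrows its range, so a lower r is partly built in. With all 19 arrays and group means taken out, r was 0.414 with miR-142-3p and 0.389 with miR-146a (permutation p = 0.107 and 0.103). These values depend on the scaling. With no scaling, r of miR-223 was 0.896 with miR-142-3p, 0.910 with miR-146a and 0.865 with miR-142-5p (permutation p at most 0.00014). Unscaled levels also carry the signal of the array, whose 75th percentile ran from 139 to 491 units, so a high r is partly built in. With labelling spike-ins set equal r was 0.801, 0.818 and 0.686 (permutation p at most 0.00122). At these 2 scalings r was not taken for miRNAs other than the members. Among the 207, ranked by r with miR-223, miR-146a was at place 53, miR-142-3p at 55 and miR-142-5p at 149.

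**Figure D5:**
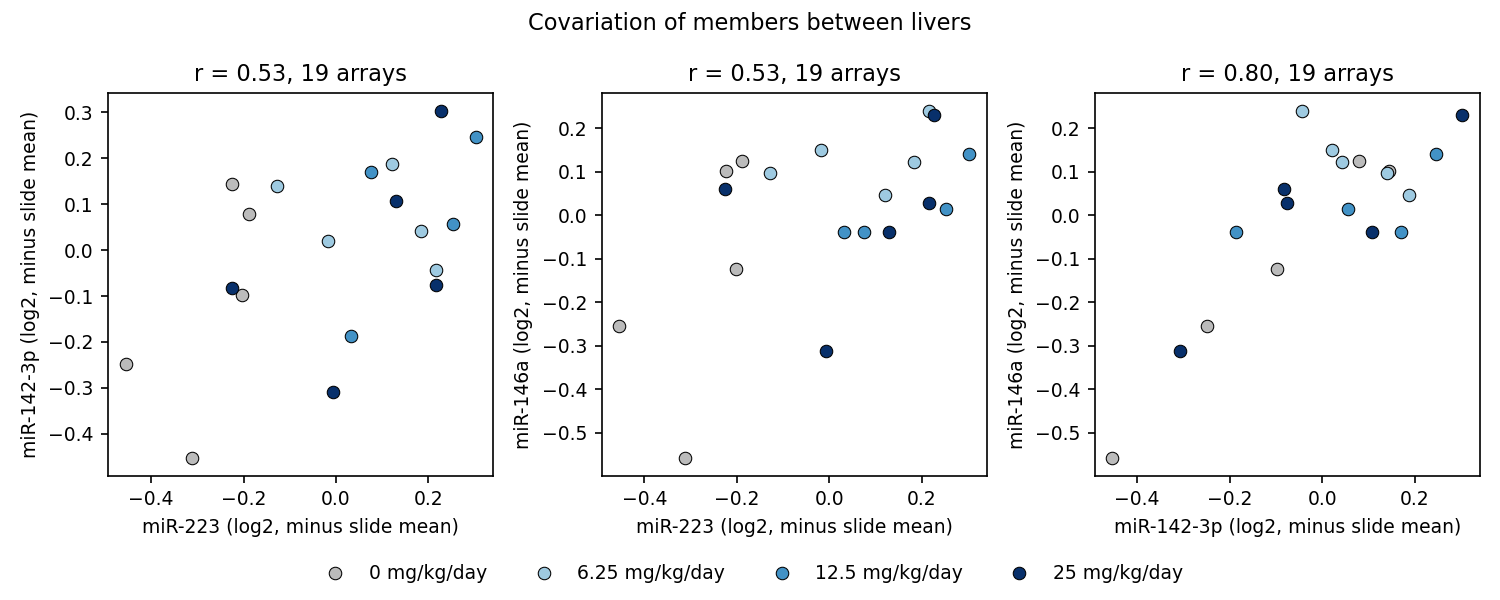
Slide-centred levels (log2) of miR-142-3p and miR-146a against miR-223, and of miR-146a against miR-142-3p, with 1 point per array coloured by dose in mg/kg/day. The points lie closest to a line for miR-146a against miR-142-3p (r = 0.80). Against miR-223, 2 controls lie at the lower left, and r was lower without them.

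The miRNAs most like miR-223 over the 19 slide-centred arrays were miR-652 (r = 0.914), miR-23b (r = 0.887), miR-15b (r = 0.859), let-7e (r = 0.848) and miR-92a (r = 0.837). Their log2 fold changes from the low to the high dose were 0.27, 0.32 and 0.25 for miR-652 and 0.20, 0.26 and 0.22 for miR-23b. They were 0.22, 0.33 and 0.28 for miR-15b, 0.29, 0.46 and 0.34 for let-7e, and 0.28, 0.34 and 0.24 for miR-92a. Of these 5, only miR-23b passed in limma at all 3 doses (adjusted p = 0.0402, 0.0237 and 0.0482). Group means were left in when r was taken, so a dose pattern like that of miR-223 is partly built into this choice.

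Other miRNAs tied to leukocytes and inflammation gave no call. Of 15 listed, 12 were on the array and 9 of these were detected nowhere, among them miR-146b, miR-147 and miR-132. The 2 tested were miR-21, found in many cell types, with log2 fold changes of -0.08, 0.05 and -0.01, and miR-342-3p with -0.02, 0.06 and 0.16 (limma adjusted p from 0.432 to 1). The log2 of the summed level of that list ran from 4.89 to 5.33, 5.11 to 5.44 and 4.78 to 5.61 from the low to the high dose, against 4.92 to 5.61 in controls. For the 6 members the same sum ran from 0.64 to 0.72, 0.48 to 0.81 and 0.37 to 0.84, against 0.17 to 0.64 in controls. Each sum is led by its brightest miRNA. In the list this is miR-21 (mean level 5.16, beside -4.69 for miR-342-3p). Among the members it is miR-142-3p (-0.22, beside -1.71 for miR-223), and undetected miRNAs enter at the floor.

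Markers of other liver cells were read beside the members. The hepatocyte markers miR-122, miR-192 and miR-194, which check the tissue label, were detected on all arrays, and 0 of 3 were called at any dose. Of 2 endothelial miRNAs, miR-126-3p was higher at the low dose (0.29, limma adjusted p = 0.0268) and not called at the middle (0.16, adjusted p = 0.191) or high dose (0.08, adjusted p = 0.518). Their summed log2 level ran from 1.58 to 1.70, 1.42 to 1.59 and 1.34 to 1.53 from the low to the high dose, against 1.06 to 1.52 in controls. Its part in the miR-223 result was not tested. Erythroid miR-451, a marker of blood left in the tissue, differed by 0.04, -0.05 and -0.28 from the low to the high dose (limma adjusted p = 1, 1 and 0.518), and 0 of 2 erythroid miRNAs were called. Of the tested miRNAs, 0 of 4 for smooth muscle and stellate cells and 0 of 5 for bile ducts were called at any dose. For muscle it was 0 of 2. Over all miRNAs, 4.33%, 5.77% and 2.4% were called higher from the low to the high dose. Median log2 fold changes in that order were 0.15, 0.34 and -0.04 for smooth muscle and stellate cells. Of these, miR-143 and miR-214 had 0.83 (SE 0.440) and 0.34 (SE 0.117) at the middle dose. For bile ducts the medians were 0.41, 0.26 and 0.39, with an SE of 0.36 to 0.75 per miRNA. Among them miR-141 and miR-200c were detected on 4 and 7 of 19 arrays. The muscle miRNAs miR-1 and miR-133b, detected on 6 and 4 of 19 arrays, had medians of 0.23, 0.60 and -0.44 (SE 1.09 to 1.72). The pancreas miRNAs miR-216a, miR-216b, miR-217 and miR-375 were detected on no array. The part of these cells in the miR-223 result was not tested.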

How the data were processed

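Per the file headers, Agilent Feature Extraction 10.7.3.1 gave the spot intensities, less their background and not scaled between arrays. The authors' deposited value table holds log2 values, and the sources used here do not give its method. Spot flags (detected, outlier, saturated) are those deposited in the scanner files, and 0 spots were saturated. Per the labels, the arrays took 100 ng of RNA from a mirVana isolation.

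Spots of a probe were averaged without outliers, divided by the array's 75th percentile over 220 probes detected on all arrays, and raised to a floor of -4.79 (log2). The brightest probe stood for a miRNA. The 208 miRNAs detected on at least 4 arrays were tested with limma 3.58.1 (R 4.3.3; lmFit, eBayes), with 4 groups in 1 fit, slide as a block, and Benjamini-Hochberg adjusted p under 0.05 over the 208. Tests were two-sided, apart from the F test. Single values used exact permutation, and correlations used 100000 resamples within slides. The fit was tested on simulated data. Replicates are separate mice. Arrays of a group had r from 0.961 to 0.997 over the tested miRNAs.

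The 6 members are always named, with the 5 miRNAs most correlated with miR-223 and the brightest of each marker list. Members and lists were chosen with earlier results of these data known. Alternatives covered scaling, floor, background, probe choice, value table, block, covariate, filter, arrays left out and the test. The normexp background used the median signal, chosen after seeing the files, as were the within-array ratios, the correlations with array signal, the values within slide rows and the adjustment over 207.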

Additional observations from a re-analysis of the deposited data

Results flagged for a closer look

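In 28 sets of arrays (each detected member in each group, and the ratios), 1 held a value far from the rest. In the middle dose group, miR-142-3p was at -0.52 in replicate 5, while the other 3 livers lay between -0.09 and -0.03. Chance marks about 1 in 20 such sets. Without that array the log2 fold change of miR-142-3p at the middle dose was 0.28 (limma adjusted p = 0.247), against 0.20 with it (limma adjusted p = 0.396).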

How the results depend on the processing

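The number of members called at the low, middle and high dose was 1, and became 0 under 12, 12 and 14 alternatives, which included quantile normalization, no scaling, the percentile over all probes, spike-ins set equal, normexp background, the second probe, no filter on dim miRNAs and the exact test. The exact test could hardly pass after adjustment, as its smallest p before it is 0.00794. Slide and row as blocks, and array signal as covariate, also gave 0 at the middle and high dose. For the mean of the doses it became 0 under 8, both of these among them. The F test called 1 member with no slide block, a random slide block or miRNAs detected on all arrays, and 0 otherwise. With no scaling the trend called 103 of 208 miRNAs lower and 1 higher, 2 members among the lower (miR-142-3p -0.0259, limma adjusted p = 0.0407, and miR-146a -0.0259, limma adjusted p = 0.0465). Of 3 correlations (r) with miR-223, 2 had a permutation p under 0.05. With group means taken out, without the 2 farthest arrays or after adjustment over 207, 0 did, while rho with miR-146a had p = 0.0332 with group means out. With no scaling or spike-ins set equal all 3 did. With group means out, r of miR-223 and miR-142-5p was -0.162.

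Directions turned as follows, in log2 units. With no scaling, the middle dose value was -0.091 for miR-223, -0.37 for miR-142-3p, -0.50 for miR-142-5p and -0.40 for miR-146a, and the high dose value was -0.32 for miR-223, -0.59 for miR-142-3p and -0.56 for miR-146a. For miR-223 the mean of the doses was then -0.072, the trend -0.0163, middle minus low -0.28 and high minus low -0.51. With the percentile over all probes the middle dose gave -0.0052, -0.29, -0.33 and -0.32 for these 4, and the high dose -0.15 for miR-142-3p and -0.11 for miR-146a. Between doses miR-223 then gave -0.30 (middle minus low), -0.17 (high minus low) and 0.13 (high minus middle). With spike-ins equal, the middle dose gave -0.0066 for miR-142-3p, -0.20 for miR-142-5p and -0.034 for miR-146a, and the high dose 0.024 for miR-142-5p. miR-223 then gave -0.022 (middle minus low) and 0.18 (high minus middle). With quantile normalization the middle dose gave -0.48 for miR-142-5p and -0.12 for miR-146a, the high dose -0.00013 for miR-146a, and high minus low -0.012 for miR-223. With the software's total gene signal the middle dose gave -0.88 for miR-142-5p and -0.093 for miR-146a, and high minus middle 0.034 for miR-223. miR-142-5p at the middle dose was -0.062 with the mean of probes, -0.070 in the authors' deposited table and -0.077 with the second probe. At the high dose it was 0.31 with normexp, 0.057 with slide and row as blocks and 0.13 with array signal as covariate. For miR-223, high minus low was -0.069 with slide and row and -0.10 with the covariate, and high minus middle was 0.011 with the second probe. Log2 ratios turned to -0.057 (miR-146a to miR-142-3p, middle dose, within slides) and -0.0027 (miR-223 to miR-146a, low dose, second probe). The causes were not tested.

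Leaving out 1 array at a time, the calls ranged from 0 to 1 for each dose, the mean of the doses and the F test. miR-223 stayed higher in all 19 runs at each dose, with 0.33 to 0.42 at the low, 0.43 to 0.58 at the middle and 0.34 to 0.46 at the high dose. The low dose call was lost in 9 runs, without control replicates 10, 17, 19 or 22, low dose replicates 3, 12, 18 or 24, or high dose replicate 23 (limma adjusted p = 0.0518 to 0.201). The middle dose call was lost in 3, without middle dose replicates 6 or 14 or control replicate 10 (limma adjusted p = 0.0720 to 0.0869). The high dose call was lost in 15 (limma adjusted p = 0.0505 to 0.151), without control replicates 10, 17, 19 or 22, low dose 3, 11, 12, 18 or 24, middle dose 5 or 14, or high dose 8, 15, 16 or 23. Without control replicate 10 the mean of the doses was 0.37 (limma adjusted p = 0.0676). Ranges that crossed 0 were -0.0066 to 0.24 (miR-142-3p, high), -0.10 to 0.074 (miR-142-5p, middle), -0.031 to 0.081 (miR-223, high minus low), and -0.065 to 0.15 and -0.010 to 0.15 (miR-146a to miR-142-3p, middle and high). No paired analysis was possible because the groups share no replicate numbers. Comparisons of only 2 groups gave no F test, trend or mean. Levels of miR-142-5p, miR-150 and miR-155 were limited by signal near or below background.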
